A study of Mus musculus with 6 samples.

Results

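In the bone marrow of naive Adig mice, 736 chromatin regions were called accessible in Aire reporter-positive cells of plasma cell surface phenotype (pc-BMACs) and in immature B cells, and were not called in plasma cells. They were 736 of the 69171 regions, 1.06%, that resulted when the peaks of all 6 ATAC-seq libraries were merged wherever they overlapped by at least 1 bp. A region was taken as a member when a peak of both pc-BMAC libraries and of both immature B cell libraries overlapped it and no peak of either plasma cell library did. The members were thus selected on the peak calls of all 6 libraries, so the count and the lack of a plasma cell peak are a description and carry no test.

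ATAC-seq marks open chromatin by where a transposase inserts sequencing adapters, and the mice were of the Balb/c strain and carried a GFP reporter of Aire. The sort took pc-BMACs with the markers AireGFP+B220-CD138+TACI+. Immature B cells were taken with AireGFP-B220+CD138-TACI-IgM+, and plasma cells with AireGFP-B220-CD138+TACI+. Each population had 2 libraries, and each experiment used 2000 to 15000 sorted cells. Nothing in the labels says that replicate libraries stem from different mice, so the spread between them may be technical. The gate sets pc-BMACs apart from plasma cells by the reporter alone, and it sets both apart from immature B cells by B220, CD138 and TACI.

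Aire is a nuclear protein best known from thymic epithelium, where it drives the expression of tissue-restricted antigens to developing T cells. An immature B cell has completed its surface IgM receptor and still carries a B cell chromatin programme run by factors such as Pax5 and Ebf1. In plasma cells that programme is closed down as Blimp-1, encoded by Prdm1, takes over and the cell turns to antibody secretion. Open chromatin regions lie either at gene starts, many of which are open in most cell types, or away from them at enhancers, which tend to be more specific to a cell type.

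The promoter sequences printed here are windows of 250 bases before to 50 bases after a RefSeq start (GRCm38.p6, the assembly of mm10) that a member covered whole, while the GC, CpG and motif values further on use every window a member touched. The first 4 below were the windows that the peaks of all 4 libraries covered whole, and the other two are windows at which the populations differed in how much was covered. Capitals mark matches, on either strand, to the motifs listed further on. Ifi30 encodes the lysosomal thiol reductase GILT, which reduces disulfide bonds of endocytosed antigens, and its window lies at chr8:70766614-70766913 on the minus strand. Gna15, the alpha subunit of a G protein found mainly in blood cells, has its window at chr10:81524176-81524475 on the minus strand. Jmjd8, a protein of the JmjC domain family, has its window at chr17:25828793-25829092 on the plus strand, and Lmtk3, a membrane-anchored kinase, at chr7:45783657-45783956 on the plus strand. Csf2rb2, the mouse beta chain specific to the IL-3 receptor, has its window at chr15:78305672-78305971 on the minus strand. Capg, an actin filament capping protein, has its window at chr6:72549397-72549696 on the plus strand.
Ifi30: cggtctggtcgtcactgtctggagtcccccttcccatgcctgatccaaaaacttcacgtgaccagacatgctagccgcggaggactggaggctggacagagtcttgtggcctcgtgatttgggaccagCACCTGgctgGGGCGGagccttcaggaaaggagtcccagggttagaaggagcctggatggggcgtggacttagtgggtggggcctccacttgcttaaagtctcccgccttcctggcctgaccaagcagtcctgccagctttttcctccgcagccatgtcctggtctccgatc
Gna15: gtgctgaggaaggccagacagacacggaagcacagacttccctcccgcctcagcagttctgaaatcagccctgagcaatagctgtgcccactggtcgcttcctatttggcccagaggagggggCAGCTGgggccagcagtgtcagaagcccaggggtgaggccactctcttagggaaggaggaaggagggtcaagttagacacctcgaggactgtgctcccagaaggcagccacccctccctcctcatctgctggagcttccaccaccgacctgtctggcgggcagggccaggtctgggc
Jmjd8: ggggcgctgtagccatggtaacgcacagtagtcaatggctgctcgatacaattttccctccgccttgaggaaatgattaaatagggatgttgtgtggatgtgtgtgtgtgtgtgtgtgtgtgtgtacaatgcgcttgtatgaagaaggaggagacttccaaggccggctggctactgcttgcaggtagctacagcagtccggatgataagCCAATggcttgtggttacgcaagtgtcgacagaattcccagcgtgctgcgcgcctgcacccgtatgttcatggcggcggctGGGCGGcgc
Lmtk3: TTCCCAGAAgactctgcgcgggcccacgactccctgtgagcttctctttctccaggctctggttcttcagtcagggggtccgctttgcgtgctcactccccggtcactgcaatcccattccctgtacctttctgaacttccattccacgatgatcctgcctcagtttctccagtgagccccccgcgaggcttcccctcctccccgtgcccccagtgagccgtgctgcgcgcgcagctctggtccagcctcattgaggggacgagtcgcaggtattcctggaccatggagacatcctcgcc
Csf2rb2: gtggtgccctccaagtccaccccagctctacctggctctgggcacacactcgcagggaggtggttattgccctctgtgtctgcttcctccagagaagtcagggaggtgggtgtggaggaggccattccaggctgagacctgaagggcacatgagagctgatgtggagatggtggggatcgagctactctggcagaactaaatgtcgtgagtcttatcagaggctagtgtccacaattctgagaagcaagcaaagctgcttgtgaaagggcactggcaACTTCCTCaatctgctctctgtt
Capg: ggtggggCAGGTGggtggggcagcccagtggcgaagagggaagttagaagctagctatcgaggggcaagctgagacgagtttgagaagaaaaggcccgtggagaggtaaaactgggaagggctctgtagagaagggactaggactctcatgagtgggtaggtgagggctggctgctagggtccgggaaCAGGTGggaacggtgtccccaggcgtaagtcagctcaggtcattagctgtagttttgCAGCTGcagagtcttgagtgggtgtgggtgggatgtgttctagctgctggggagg

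At Ifi30, Gna15, Jmjd8 and Lmtk3 the peaks of both pc-BMAC and both immature B cell libraries covered all 300 bases of the window. The pc-BMAC peaks covered 298 and 300 bases of the Csf2rb2 window, against 150 and 150 bases in immature B cells. At Capg both pc-BMAC libraries covered all 300 bases, against 0 and 282 bases in immature B cells, so 1 immature B cell library had its Capg peak beside the window and not on it. A member is thus a shared interval, and the peaks inside it need not sit on the same bases.

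The peak lists held 38607 and 34070 peaks in pc-BMACs, 51643 and 46534 in immature B cells, against 37821 and 36723 in plasma cells, and gave no read counts, so depth is unknown and an uncalled region is not shown to be closed. In bulk samples, fewer cells with an open region and less signal per cell cannot be told apart. Of the 485 regions of a B cell identity list, 3.92% were called in pc-BMACs alone and 16.9% in immature B cells alone, near the 4.42% and 14.3% of all regions, so these calls do little to check the labels. A plasma cell list of 301 regions had 14.3% in the pattern of pc-BMACs with plasma cells, beside 3.66% of all regions. It had 2.33% in that of immature B cells with plasma cells, beside 4.88% of all regions. Aire had 1 region, called in all 6 libraries, and no region of Ptprc (B220), Sdc1 (CD138) or Tnfrsf13b (TACI) was a member.

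Regions shared by pc-BMACs and immature B cells were fewer than those either population shared with plasma cells. Both libraries of pc-BMACs and plasma cells and neither of immature B cells had 2529 regions. Immature B cells and plasma cells without pc-BMACs had 3377. A further 3054 regions were called in pc-BMACs alone, 9904 in immature B cells alone, 1041 in plasma cells alone and 20468 in all 6 libraries. The populations' lists differ in length, and these counts were not tested against each other: with 2 libraries against 2 the smallest two-sided exact permutation p is 0.333.

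**Figure D1:**
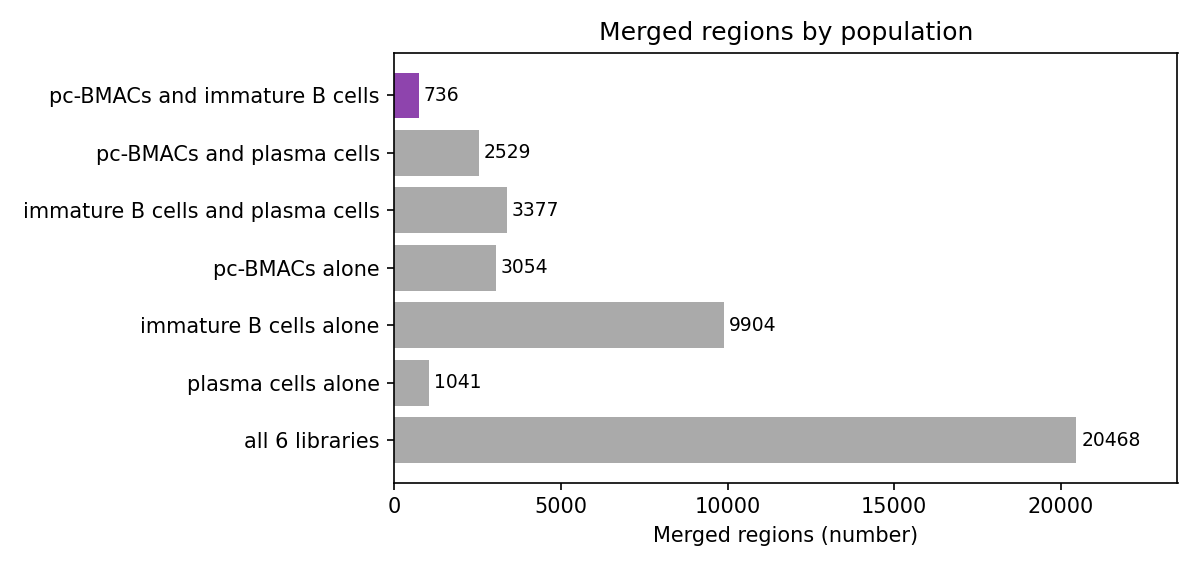
Number of merged regions (horizontal axis) called in both libraries of the named populations and in no library of the others, with regions called in all 6 libraries at the bottom. The 736 regions of pc-BMACs and immature B cells form the shortest bar.

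Just outside the rule lay 1152 regions that had all 4 libraries of pc-BMACs and immature B cells and 1 plasma cell library, 639 of them with the first plasma cell library and 513 with the second. Taking both plasma cell libraries, 20468 of the 22356 regions of the 4 libraries were called there too. Among regions with no plasma cell peak, 240 missed the first pc-BMAC library only and 923 missed the second only. Another 83 missed the first immature B cell library only and 345 the second only. In both populations the second library, which had the shorter list, was the one more often missing.

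Regions shared by 1 library of each population were uneven across the pairs of libraries. Regions called in exactly 1 pc-BMAC and 1 immature B cell library, and in no plasma cell library, numbered 365 for the first library of each, which are the longer lists. The other pairings, again with no plasma cell peak, gave 86 for pc-BMACs 1 with immature B cells 2, 79 for pc-BMACs 2 with immature B cells 1 and 35 for both second libraries. Both first libraries also carry the label R2 in their descriptions, while the other pairings share no R label. What the R labels stand for is not stated. List length and this label cannot be told apart here, and the part of either in these counts was not tested.

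Members lay outside plasma cell peaks by construction, at widely varying distances. The median gap from a member to the nearest plasma cell peak was 7.061 kb, the closest was 99 bp and the farthest 582.645 kb. A plasma cell peak lay within 500 bp of 39 members, 5.30%, and within 10 kb of 454 members, 61.7%. The same distances were not taken for other regions, so these shares do not show whether members lie closer than other regions do. One of the nearest named cases was the member beside Cd86, a costimulatory ligand for T cells, with a gap of 192 bp.

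Members were narrow in every library. Their median width, counted as the bases of the member that a library's peaks covered, was 285.5 and 221.5 bp in pc-BMACs and 350 and 268 bp in immature B cells. Regions called in all 6 libraries had medians of 907 and 767 bp in pc-BMACs and 1034 and 767 bp in immature B cells. The members' medians came to 0.546 and 0.453 of the median of all peaks of the same pc-BMAC library and to 0.773 and 0.693 of that of the same immature B cell library. Regions with 1 plasma cell library as well resembled the members, with medians of 316 and 249 bp in pc-BMACs and 371 and 294 bp in immature B cells.

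Many members sat at the lower limit of the lists, where no peak was under 150 bp. A width of exactly 150 bp was found for 105 and 205 members in pc-BMACs, 14.3% and 27.9%, and for 31 and 102 in immature B cells, 4.21% and 13.9%. Regions with 1 plasma cell library as well had shares of 7.64% and 17.3% in pc-BMACs and 2.43% and 7.90% in immature B cells. In regions of all 6 libraries these shares were 0.723% and 2.24% in pc-BMACs and 0.342% and 1.35% in immature B cells. How many members would be lost or gained with a deeper library was not tested.

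Within members the pc-BMAC peaks were on the whole narrower than the immature B cell peaks, by no more than the spread over pairs of libraries. The median log2 ratio of pc-BMAC to immature B cell width was -0.28, and the 4 pairs of 1 pc-BMAC and 1 immature B cell library ranged from -0.60 to 0.09 with an SD of 0.28. Over all 22356 regions of the 4 libraries the same ratio was -0.09. Replicates of a population differed by a median of 0.38 in pc-BMACs and 0.42 in immature B cells on the same scale, disregarding sign.

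Both pc-BMAC widths were larger than both immature B cell widths in 102 members, 13.9%, where 17.6% of all regions of the 4 libraries had that order. Both were smaller in 279 members, 37.9%, against 30.5% of all those regions. In the remaining 355 members the widths of the populations overlapped. The first share was below its background and the second above it, and neither was particular to the members. Regions of the 4 libraries with 1 plasma cell library had 14.1% and 38.4% in the same 2 orders, with a median log2 ratio of -0.27.

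**Figure D2:**
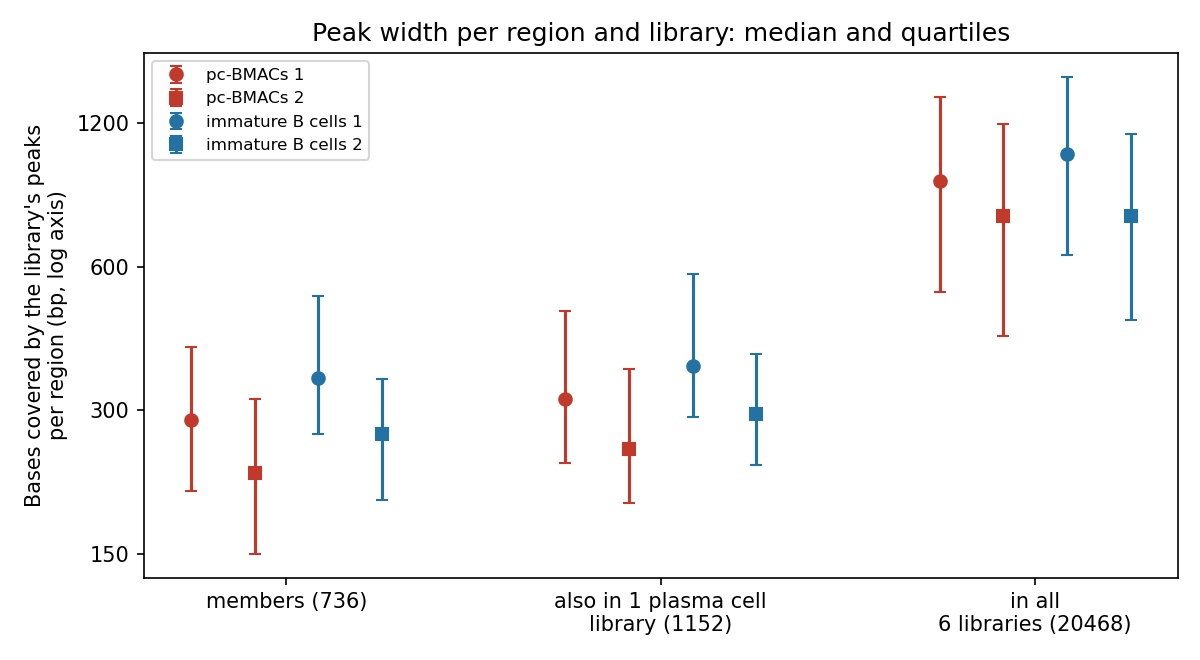
Bases covered by a library's peaks per region (log axis), as medians with bars for the quartiles, in both pc-BMAC libraries and both immature B cell libraries. Members, at the left, have medians of 221.5 to 350 bp, and regions of all 6 libraries, at the right, have medians of 767 to 1034 bp.

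The rule required peaks of all 4 libraries in 1 merged region, so in narrow regions shared bases and close centres largely follow from it. Each of the 4 libraries had a single peak in 700 members, 95.1%, and in 707 members at least 1 base lay in a peak of all 4 libraries, with a median of 150 such bases over all members. The other 29 had no base in common to all 4. The centres of pc-BMAC and immature B cell peaks were a median of 37 to 44 bp apart, and 77.9% to 81.4% of members had them within 100 bp. Regions with 1 plasma cell library as well had medians of 37 to 39.75 bp, and regions of all 6 libraries, which are wider, 52.5 to 62.5 bp. Replicates were closer in members, at 29.5 bp between the pc-BMAC libraries and 28.5 bp between the immature B cell libraries.

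By mean width over the 4 libraries the 5 widest members lay at Ikzf3, Ifi30, Dusp5, Ndufa4l2 and Pik3ap1. Ikzf3 encodes Aiolos, an Ikaros family transcription factor of B cells, and its member at chr11:98544962-98547962 overlaps an end of the gene. It spanned 2985 and 2977 bp in pc-BMACs, against 2990 and 929 bp in immature B cells. The nearest plasma cell peak was 1960 bp away, and 3 libraries thus had a wide peak of nearly equal size and the second immature B cell library a shorter one.

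The Ifi30 member at chr8:70764646-70767353 covered 2708 and 2302 bp in pc-BMACs and 2387 and 2351 bp in immature B cells. All 4 libraries shared 2243 of these bases, and the nearest plasma cell peak was 827 bp away. It was the single region assigned to Ifi30, so no plasma cell peak was assigned to the gene. Widths of the populations overlapped.

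Pik3ap1 encodes BCAP, the adaptor that links the B cell receptor to PI 3-kinase, and its member lies inside the gene at chr19:41381345-41383389. Its peaks covered 1169 and 836 bp in pc-BMACs, against 1952 and 2004 bp in immature B cells, with no overlap between the populations. The gene held 23 regions, of which 15 and 11 were called in pc-BMACs, 19 and 17 in immature B cells, against 11 and 11 in plasma cells.

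Ndufa4l2 encodes a mitochondrial protein related to a subunit of the respiratory chain and known for its induction by hypoxia. Its member at chr10:127508237-127510032 covered 1706 and 1714 bp in pc-BMACs and 1663 and 1479 bp in immature B cells, a small difference without overlap. The member at Gna15, whose promoter window is printed above, lies at chr10:81523525-81524733 and measured 1057 and 1021 bp in pc-BMACs and 1209 and 984 bp in immature B cells. Its populations overlapped, and the nearest plasma cell peak was 1858 bp away.

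In a few members the pc-BMAC peaks were several times wider. The 5 with the highest ratio among the 102 lay near Dusp5, Pxt1, Ehd4, Capg and Ksr2. Dusp5 is a nuclear phosphatase of ERK, and its member at chr19:53542482-53545525, 673 bp outside the gene, covered 2911 and 3023 bp in pc-BMACs, against 385 and 661 bp in immature B cells, a 5.88-fold ratio of geometric means. Both immature B cell peaks lay at 1 edge of the wide pc-BMAC peaks.

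At Capg the pc-BMAC widths were 2835 and 1709 bp, against 371 and 1000 bp in immature B cells, a 3.61-fold ratio, and no base was common to all 4 libraries. Ehd4, a protein of endocytic recycling, had a member at chr2:120096257-120097741 with 1485 and 1395 bp in pc-BMACs, against 368 and 194 bp in immature B cells. The member outside Pxt1 at chr17:28925013-28926742 had 1727 and 1272 bp in pc-BMACs, against 347 and 193 bp in immature B cells. Ksr2, a scaffold of the Ras to ERK cascade, had 719 and 701 bp in pc-BMACs, against 203 and 204 bp in immature B cells, at chr5:117484945-117485740. The choice required both pc-BMAC widths to be the larger.

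The reverse was seen for 5 members near Phf21a, Klf9, Banf2, Mnd1 and Evi5, the lowest ratios among the 279. Phf21a is a subunit of the LSD1 histone demethylase complex, and its member at chr2:92201913-92202989 covered 150 and 190 bp in pc-BMACs, against 1071 and 980 bp in immature B cells, a ratio of 0.165. Klf9, a Krüppel-like factor that restrains proliferation of B cells in mice, lay 4748 bp from a member at chr19:23134479-23136478 with 571 and 236 bp in pc-BMACs, against 2000 and 1888 bp in immature B cells. The pc-BMAC peaks lay inside the wide immature B cell peaks there.

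The Banf2 member at chr2:144050182-144051294 had 150 and 232 bp in pc-BMACs, against 1113 and 869 bp in immature B cells. Mnd1, a meiotic recombination protein, lay 15804 bp from a member at chr3:84070766-84072129 with 292 and 250 bp in pc-BMACs, against 1364 and 1227 bp in immature B cells. Evi5, a GTPase-activating protein of the Rab family, held a member at chr5:107753536-107755207 with 278 and 189 bp in pc-BMACs, against 1672 and 694 bp in immature B cells. The pc-BMAC widths of these 5 members ran from 150 to 571 bp.

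**Figure D3:**
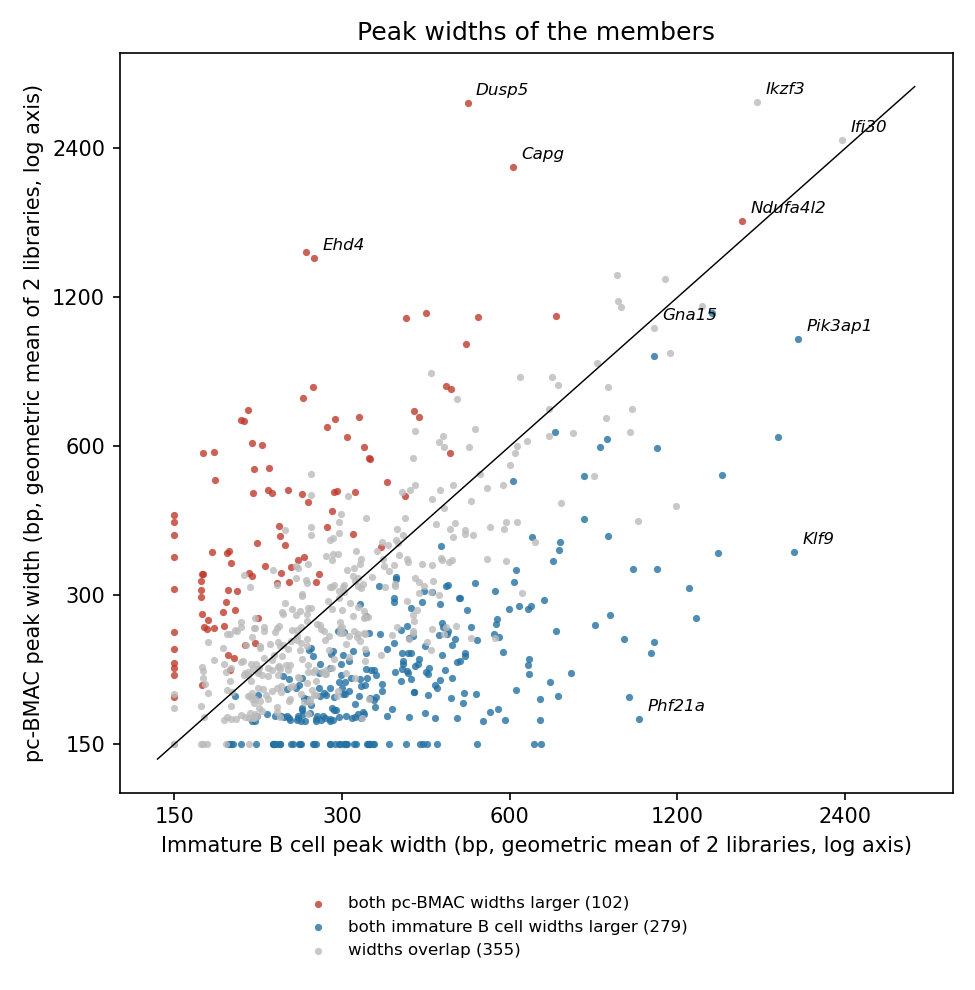
Width of each member in pc-BMACs (vertical axis) against its width in immature B cells (horizontal axis), as geometric means of 2 libraries on log axes, with a line at equality. Red points are the 102 members whose pc-BMAC widths were both larger, blue points the 279 whose pc-BMAC widths were both smaller and grey points the 355 with overlapping widths; Dusp5 and Capg lie far above the line, Klf9 and Phf21a far below it.

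**Figure D4:**
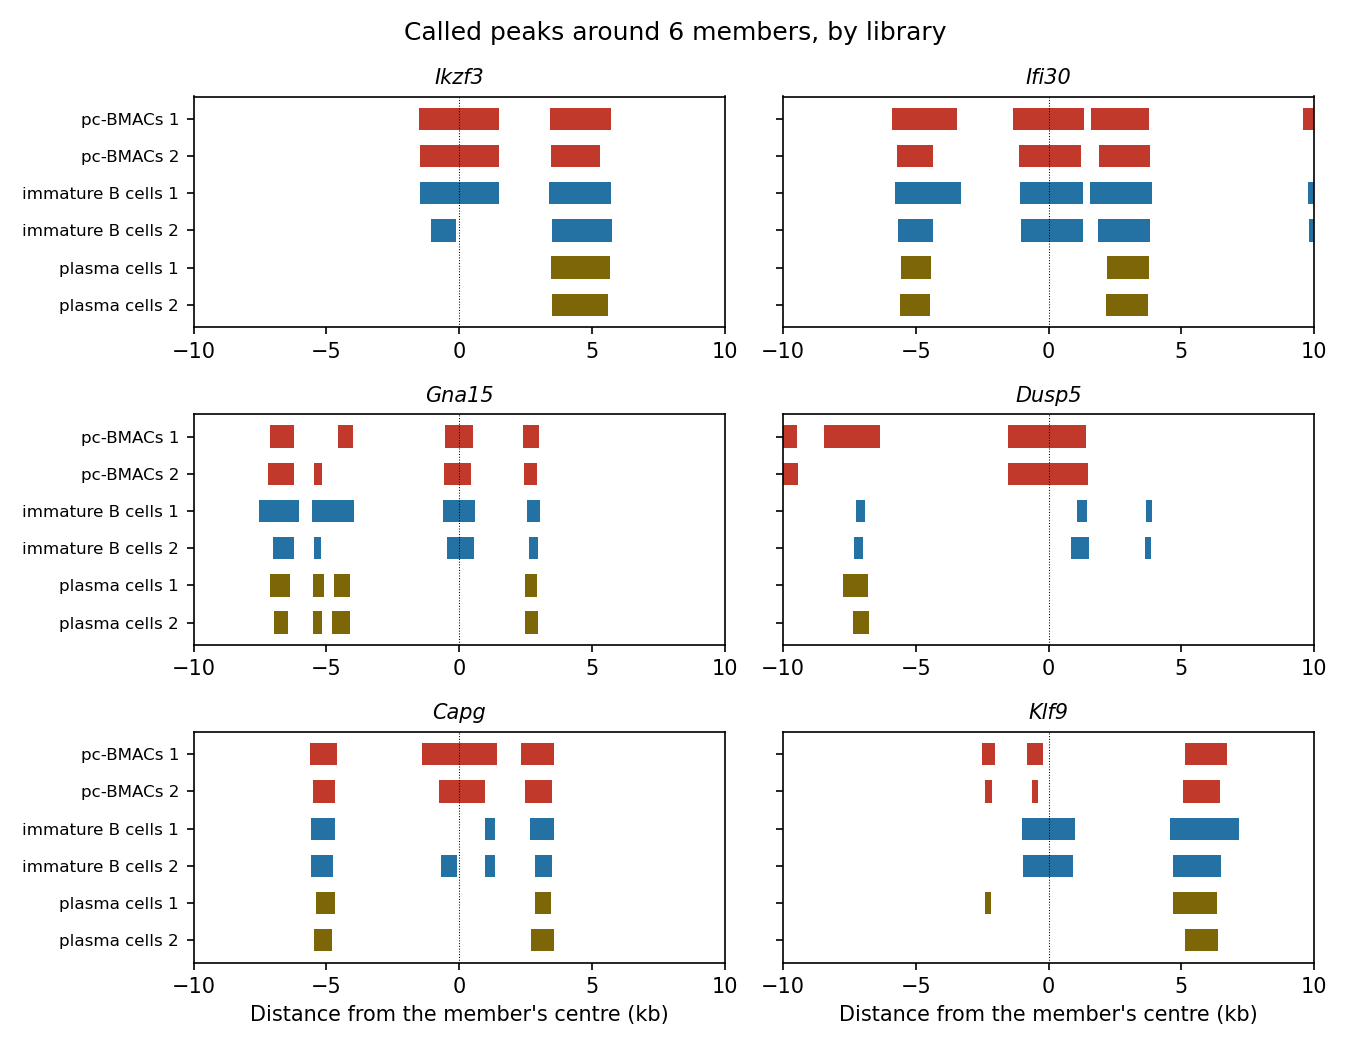
Called peaks in each library (rows) within 10 kb of the centre of 6 members; the horizontal axis is the distance from the member's centre. At Ikzf3 and Ifi30 the central peaks of pc-BMACs and immature B cells are wide in most libraries, at Dusp5 and Capg they are wider in pc-BMACs and at Klf9 in immature B cells, and no plasma cell peak lies at any of the 6 centres.

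Few members lay at gene ends under the rule used, and the order against all regions depends on that rule. The gene table gives no strand or exons, so exon, intron and UTR positions were not assigned. Within 1 kb of either end of a protein-coding gene lay 81 members, 11.0%, with an exact 95% binomial interval over regions of 8.84 to 13.5%. All merged regions had 19.6% there and regions of all 6 libraries 47.0%. When a library counted only if its peaks spanned 50% or more of the region, 1263 regions met the rule. Their share was 24.8%, above the 19.6% of all regions, which turns the order. That setting also left out plasma cell peaks of less cover. Of the 1263 regions 291 were members here, and the others all held a plasma cell peak of under 50% cover. With the widest 17035 peaks of each list, 143 regions met the rule and 17 of the members here remained. Of the 143, 26.6% lay near an end, against 40.3% of all regions. The other shared patterns were close to the members, with 8.98% for pc-BMACs with plasma cells and 8.77% for immature B cells with plasma cells. Regions called in a single population were lower, at 7.04% for pc-BMACs, 5.69% for immature B cells and 6.82% for plasma cells.

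A gene body overlapped 465 members, 63.2%, close to the 64.0% of all regions. Distances to a listed start could be taken for 723 members. Of these 56, 7.75%, had their centre within 1 kb of a start, 177, 24.5%, lay at 1 to 10 kb, 431, 59.6%, at 10 to 100 kb and 59, 8.16%, farther. The median distance was 18.2 kb, against 15.0 kb for all regions and 4.53 kb for regions of all 6 libraries. Most members were thus distal, as were most regions of the other partly shared patterns.

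**Figure D5:**
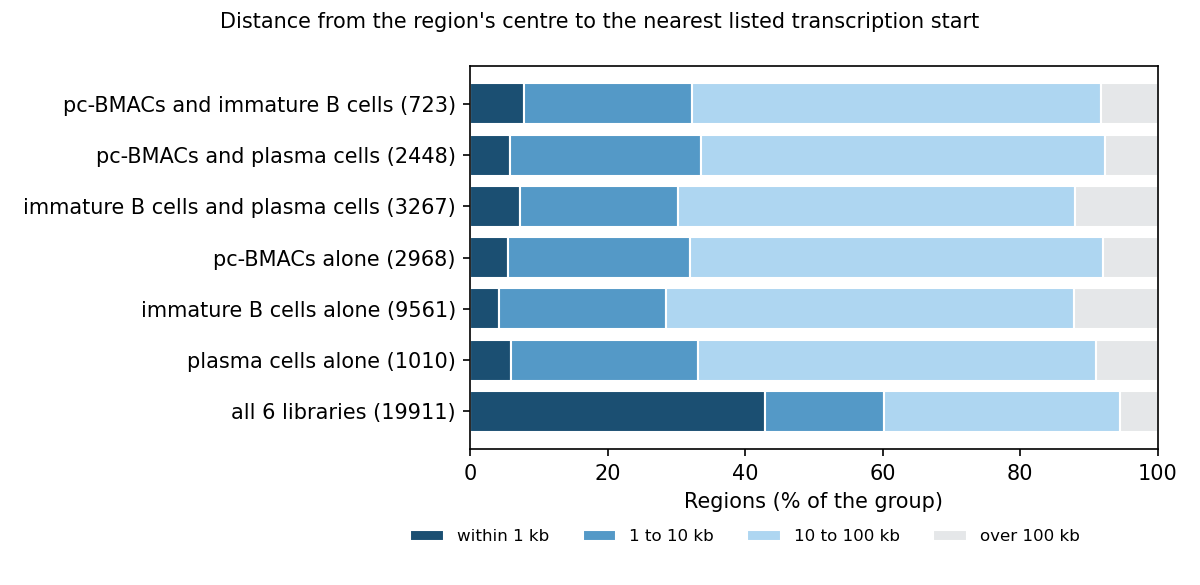
Share of regions (horizontal axis, %) by the distance of the region's centre to the nearest listed transcription start, for each pattern of populations, with the number of regions that have a distance in brackets. In members 7.75% lie within 1 kb, while in regions of all 6 libraries 42.8% do.

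Across chromosomes the share of regions that were members ran highest on chromosome 10, at 60 of 3887 or 1.54%, and, among chromosomes with a member, lowest on X, at 9 of 1475 or 0.610%, while Y had 0 of 20. Few members neighboured each other, though the share was above that of all regions. The nearest region was another member for 19 members, 2.58%, while for all regions it was a member in 1.07%. For 242 members, 32.9%, the nearest region was one called in all 6 libraries, against 28.2% of all regions.

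Promoter windows were reached by 48 members, 6.64% of the 723, against 15.6% of all regions on the same chromosomes and 42.8% of regions of all 6 libraries. The 48 members touched 54 windows, and in 41 of the 54 a peak of each of the 4 libraries reached the window. The median GC content of the 54 windows was 59.2% and the median ratio of observed to expected CpG was 0.572, with quartiles of 0.361 and 0.816. A ratio of at least 0.6, a usual mark of CpG islands, was met by 24 windows, 44.4%. In the 11620 windows of regions of all 6 libraries 78.3% met it, with a median of 0.797, and among all 32851 windows 35.8% did, with a median of 0.384. The members' windows thus lay between these sets in CpG content, which was not particular to them. Windows of pc-BMACs with plasma cells met the ratio in 41.4% and those of pc-BMACs alone in 43.2%, near the members. Shares were lower for immature B cells with plasma cells, 34.7%, immature B cells alone, 32.3%, and plasma cells alone, 20%. Among the sequences printed above the ratio was 0.403 for Ifi30, 0.206 for Gna15, 0.797 for Jmjd8, 0.627 for Lmtk3, 0.134 for Csf2rb2 and 0.357 for Capg.

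A total of 19 motifs were searched on both strands of each window, with overlapping matches of different motifs each counted. The E-box CAGCTG, bound by E2A proteins among others, was found in 16 of the 54 windows, 29.6%, against 16.3% of all windows and 14.3% of those of all 6 libraries. The windows of pc-BMACs with plasma cells held it in 25.8% and those of immature B cells with plasma cells in 25.2%, so its share was alike in the other shared patterns. The E-box CAGGTG was in 15, 27.8%, against 20.2% of all windows. The GC box GGGCGG was in 28, 51.9%, against 35.7% of all windows and 67.9% of those of all 6 libraries. CCAAT was in 15, 27.8%, against 37.4% of all windows. Windows of pc-BMACs with plasma cells held CAGGTG in 27.3%, GGGCGG in 47.7% and CCAAT in 25%. Those of immature B cells with plasma cells held them in 26.6%, 44.6% and 29.7%, so these shares too were not particular to the members. The AP-1 letters TGANTCA were in 5, 9.26%, against 7.81% of all windows. Of the rest, GAGGAAGT, an ETS core of PU.1 and SpiB, was in 2 windows, 3.70%, against 3.20% of all windows.

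AGATAA, recognised by zinc finger factors of blood cells, was in 3 windows, 5.56%, against 11.2% of all windows, the octamer ATTTGCAT in 1, 1.85%, against 1.74%, and the STAT letters TTCCNNGAA in 1, 1.85%, against 4.81%. The STAT match is the one at the first base of the Lmtk3 window, and a match to GAGGAAGT stands near the 3′ end of the Csf2rb2 window. The Gna15 window holds the first E-box, the Capg window both E-boxes, the Ifi30 window the second E-box and the GC box, and the Jmjd8 window CCAAT and the GC box. No window matched the letters searched for EBF, NF-kB, IRF/ISRE, CTCF, NRF1, MEF2, BLIMP-1, RUNX (TGTGGTTT), CRE (TGACGTCA) or a short ETS core (ACCGGAAGT), each of which was in 0.110% to 3.44% of all windows. These windows are a small part of the members, and a match to letters is not a bound site.

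Assignment to the nearest protein-coding gene within 100 kb placed 702 members, 95.4%, at 647 genes and left 34 without a gene. Most genes had a single member: 601 had 1, 38 had 2, 7 had 3 and 1 had 4. For 573 of the 647 genes another region was called in both plasma cell libraries, so the gene as a whole was not without plasma cell peaks. No region with a plasma cell peak was assigned to 54 of the genes, 8.35%, beside 10.0% of all 15196 genes with a region. The rule used these calls.

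Most of the 8 genes with at least 3 members had many regions. Lpp, a LIM domain protein of focal adhesions, had 4 members among 57 regions. Of these 57, 27 and 24 were called in pc-BMACs, 43 and 43 in immature B cells, against 20 and 18 in plasma cells. One of its members, at chr16:24737328-24738072, lay 77942 bp from the nearest plasma cell peak and covered 626 and 247 bp in pc-BMACs and 682 and 637 bp in immature B cells. The other 3, at chr16:24641450-24641769, chr16:24826388-24827090 and chr16:24836671-24836975, had widths of 195 to 289 bp in pc-BMACs and 150 to 703 bp in immature B cells.

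The 7 genes with 3 members were Dock10, Foxn3, Prkce, Tcf20, Xylt1, Elk3 and Ncan. Dock10, a guanine nucleotide exchange factor, had 27 regions, of which 14 and 10 were called in pc-BMACs, 22 and 17 in immature B cells, against 8 and 9 in plasma cells. Elk3, an ETS domain factor of the ternary complex group, had 24, with 17 and 15 in pc-BMACs, 17 and 15 in immature B cells, against 10 and 11 in plasma cells. Tcf20, a transcriptional coregulator, had 18, with 13 and 11 in pc-BMACs, 12 and 9 in immature B cells, against 6 and 7 in plasma cells. These counts include the members, which by the rule add to every pc-BMAC and immature B cell library and to no plasma cell library, so an order between the populations is not read from them; the same holds for the counts of the other named genes.

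Ncan, a chondroitin sulfate proteoglycan known from the brain, had only 5 regions, and 3 of them were members. They were called 4 and 4 times in pc-BMACs, 5 and 5 times in immature B cells and once in each plasma cell library. Its members were narrow, at chr8:70104527-70104972 with 291 and 150 bp in pc-BMACs and 446 and 349 bp in immature B cells, and likewise at chr8:70117648-70117952 and chr8:70122896-70123284. Foxn3, a forkhead repressor, had 57 regions, with 37 and 28 called in pc-BMACs, 41 and 32 in immature B cells, against 29 and 21 in plasma cells. Prkce, a protein kinase C isoform, had 53, with 31 and 20 in pc-BMACs, 36 and 31 in immature B cells, against 25 and 20 in plasma cells. Xylt1, which starts glycosaminoglycan chains, had 42, with 20 and 22 in pc-BMACs, 33 and 27 in immature B cells, against 18 and 15 in plasma cells.

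Genes with 2 members that the naming rule took in were AW554918, Akap13, Arntl, Atp2b1, Cblb, Ccdc177, Dip2c, Dtnb, Enthd1, Gigyf2, Itpr2 and Kansl1. Arntl encodes BMAL1 of the circadian clock, Akap13 an anchoring protein for protein kinase A, and Atp2b1 a plasma membrane calcium pump. Gigyf2, a translational repressor, had 6 regions, with 6 and 4 called in pc-BMACs, 3 and 3 in immature B cells, against 1 and 1 in plasma cells. Its members, at chr1:87418712-87419056 and chr1:87447508-87448040, had widths of 150 to 244 bp in pc-BMACs and 260 to 533 bp in immature B cells.

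Genes of the B cell receptor pathway held 9 members among their 494 regions, 1.82%, beside 1.06% of all regions. The list was near all regions for pc-BMACs with plasma cells, at 3.85% beside 3.66%. For immature B cells with plasma cells it was also near, at 4.86% beside 4.88%. A count of 9 changes much with a few regions, Cblb and Itpr2 had 2 members each, and the difference was not tested. The 9 members lay at 7 of the 29 genes of that list. Besides Pik3ap1 these were Itpr1 and Itpr2, the IP3 receptors that release calcium from the endoplasmic reticulum, Cblb, a ubiquitin ligase that dampens receptor signals, and Lyn, Pik3cd and Vav2. The Itpr2 members at chr6:146208969-146209693 and chr6:146160893-146161194 covered 705 and 430 bp and 150 and 150 bp in pc-BMACs, against 718 and 504 bp and 267 and 192 bp in immature B cells.

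The Itpr1 member at chr6:108417582-108417851 covered 150 and 150 bp in pc-BMACs, against 265 and 240 bp in immature B cells. Cblb had 187 and 198 bp in pc-BMACs and 266 and 190 bp in immature B cells at chr16:52046574-52046857. At its other member, chr16:52132744-52133433, pc-BMACs had 242 and 352 bp and immature B cells 690 and 224 bp, with no base common to all 4 libraries. Lyn, a Src family kinase, Pik3cd, the catalytic p110 delta subunit of PI 3-kinase, and Vav2, a guanine nucleotide exchange factor, had members of 187 to 425 bp in pc-BMACs and 225 to 604 bp in immature B cells, and they are named here to complete the count.

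Antigen presentation and costimulation genes held 4 members among 170 regions, 2.35%, beside 1.06% of all regions. They lay at Ifi30, Cd86, Nlrc5 and Tnfrsf14. The list was also above all regions for pc-BMACs with plasma cells, at 6.47% beside 3.66%. For immature B cells with plasma cells it was below, at 3.53% beside 4.88%. Nlrc5 is the transactivator of MHC class I genes, and its member at chr8:94415267-94415580, 18755 bp outside the gene, had 189 and 192 bp in pc-BMACs, against 314 and 248 bp in immature B cells. Cd86 had 232 and 214 bp in pc-BMACs and 328 and 198 bp in immature B cells at chr16:36675335-36675662. Tnfrsf14, the receptor HVEM, had 150 and 193 bp in pc-BMACs, against 277 and 202 bp in immature B cells at chr4:154913908-154914192. Of these, Ifi30 alone was wide. Counts of this size change by large factors with a few regions, and they were not tested.

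The B cell identity list had 4 members among 485 regions, 0.825%, beside 1.06% of all regions, at Ikzf3, Blk, Foxp1 and Ly6d. Blk, a Src family kinase of B cells, had 238 and 188 bp in pc-BMACs, against 379 and 310 bp in immature B cells at chr14:63381913-63382291. Ly6d, a surface marker of B lineage commitment in mouse, had a member at chr15:74762213-74763227 with 804 and 760 bp in pc-BMACs, against 700 and 317 bp in immature B cells, and a plasma cell peak lay 287 bp away. Foxp1, a forkhead factor needed early in the B lineage, had 99 regions, of which 1 was a member, with 845 and 328 bp in pc-BMACs and 370 and 188 bp in immature B cells.

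Genes of early B precursors had no member among 274 regions, and a count of 0 allows a share of up to 1.09%, covering counting error only, which takes in the 1.06% of all regions. Activation and germinal centre genes had 1 member in 243 regions, 65402 bp outside Bcl6, the repressor of germinal centre B cells, with 253 and 150 bp in pc-BMACs, against 489 and 404 bp in immature B cells at chr16:24054268-24054756. The list of homing and survival genes had 1 in 274, outside Bmf, a BH3-only inducer of apoptosis, with 401 and 393 bp in pc-BMACs and 464 and 150 bp in immature B cells. The Bcl6 member was without overlap between the populations and the Bmf member was not. Counts of 0 or 1 in lists of this size do not set them apart from all regions.

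Plasma cell genes held 4 members among 301 regions, 1.33%, beside 1.06% of all regions, at Prdm1, Derl3, Ly6k and Cd28. The Prdm1 member at chr10:44538694-44539537 lay 10136 bp outside the gene and 449 bp from a plasma cell peak, with 481 and 256 bp in pc-BMACs and 810 and 269 bp in immature B cells. Prdm1 had 24 regions in all, of which 13 and 12 were called in pc-BMACs, 14 and 16 in immature B cells, against 12 and 11 in plasma cells. Derl3, a component of endoplasmic reticulum-associated degradation, had 278 and 233 bp in pc-BMACs and 233 and 203 bp in immature B cells at chr10:75887622-75887916.

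Cd28, the T cell costimulatory receptor that plasma cells also carry, had 323 and 150 bp in pc-BMACs and 194 and 202 bp in immature B cells at chr1:60773246-60773568. Ly6k, a GPI-anchored protein, had 280 and 286 bp in pc-BMACs, against 401 and 396 bp in immature B cells at chr15:74787949-74788351. Neither region of Ly6k had a plasma cell peak, whereas the other 3 genes had such regions.

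Genes of Aire regulation and NF-kB had 2 members among 183 regions, 1.09%, close to all regions. One lay inside Nfkb1, which encodes p105 and p50, at chr3:135616669-135617148 with 436 and 289 bp in pc-BMACs and 450 and 235 bp in immature B cells. The other lay 84099 bp outside Tnfaip3, the NF-kB inhibitor A20, at chr10:19099509-19100132 with 436 and 303 bp in pc-BMACs and 458 and 190 bp in immature B cells. In both the populations overlapped.

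None of the members was assigned to a gene on the marker lists of other cell types the gates could hold. There were 0 among 227 regions of dendritic cell genes, which allows up to 1.32%, 0 among 114 of monocyte, macrophage and neutrophil genes, which allows 2.63%, 0 among 138 of T, NK and innate lymphoid genes, which allows 2.17%, and 0 among 96 of erythroid and megakaryocyte genes, which allows 3.13%. Each of these limits lies above the 1.06% of all regions, so the zeros do not set these lists apart. Members were also assigned to myeloid and lymphoid genes outside the lists, such as Csf2rb2, Ccr1, Mrc1, Ccl6 and Klrb1a. Those of Ccr1, Ccl6 and Klrb1a lay outside the gene. Housekeeping genes had 1 in 70, inside Hprt, a purine salvage enzyme, with 150 and 187 bp in pc-BMACs, against 236 and 272 bp in immature B cells. Over all 13 lists 26 members were assigned to a list gene, 3.53% of members, against 4.1% of all regions. The lists therefore account for few of the members.

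At 27 genes the member was the only region assigned. Among them were Ifi30, Jmjd8, H2-Q7, a class Ib MHC molecule, Ccl27a, a chemokine, and Ramp2, a receptor activity-modifying protein. The Jmjd8 member at chr17:25828661-25829328 covered 647 and 523 bp in pc-BMACs and 668 and 565 bp in immature B cells, with 503 bases common to all 4 libraries. H2-Q7 had 150 and 150 bp in pc-BMACs, against 188 and 187 bp in immature B cells at chr17:35438999-35439203, and since H2-Q7 and Ccl27a belong to families with near-identical copies their peaks are uncertain. Csf2rb2 had 2 regions, neither with a plasma cell peak, and its member at chr15:78305532-78306065 covered 357 and 534 bp in pc-BMACs, against 150 and 150 bp in immature B cells. Its neighbour Csf2rb is a close paralog, so the Csf2rb2 peaks are uncertain too. The populations overlapped at Jmjd8 and did not at H2-Q7 or Csf2rb2.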

How the data were processed

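The authors deposited 1 peak list per library, and its score column holds 1000 in every row, so only the peak intervals were used. Bowtie2 2.3.3, HOMER 4.10, bedtools and mm10 are named without roles, per the submitters' processing notes, and no label states the peak calling settings or what each list was intersected with. Peaks of the 6 lists were merged in Python 3.11.15 (numpy 2.4.6, scipy 1.17.1, matplotlib 3.10.9), which was tested on simulated data with planted patterns and checked against bedtools 2.31.1. Genes, starts and sequences came from RefSeq tables of GRCm38.p6, in which 13 gene lists, 354 genes, were looked up, and starts on 1 chromosome were not used here. Without counts, depth is unknown and no interval that needs it was computed. The members, the gene lists and the rules were chosen with earlier results of these data known. Genes named are the 20 with most members, up to 4 per list, the sort markers (Ighm, not in the protein-coding table, was not analysed here) and genes whose promoter window met a member. Members described singly are the 5 widest, the 5 highest and 5 lowest width ratios without overlap and those of named list genes; other genes were named after their values were seen. Alternatives were a minimum cover, shorter lists, gaps, wider peaks, other gene distances and leaving out each library.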

Additional observations from a re-analysis of the deposited data

How the results depend on the processing

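The member set depends strongly on how a peak is taken to mark a region. Where peaks had to cover at least 50% of the merged region there were 1263 members, of which 291 of the 736 remained; with the widest 34070 peaks of each list there were 393, with 260 remaining; and with the widest 17035 there were 143, with 17 remaining. Merging across gaps of up to 100 bp gave 732 and peaks of at least 250 bp gave 594, which kept 729 and 147 of the 736. The 50% cover, the shorter lists and the 250 bp limit also drop plasma cell peaks. Members under these settings that are outside the 736 lay in merged regions that originally held a plasma cell peak. Only 9 members, 1.22%, met all 5 of these rules, at Ifi30, Ndufa4l2, Sfi1, Ldb1, Gna15, Atp2b4, Osbpl8, Slc34a3 and Rnf145. Leaving out 1 library gave 824 to 1659 members, with 1659 without pc-BMACs 2, 1374 without plasma cells 1 and 1248 without plasma cells 2. The share within 1 kb of a gene end was 24.8% with 50% cover, 26.6% with the widest 17035 peaks and 15.2% with peaks of at least 250 bp, 24.9% when 5 kb counted as near, and 9.40 to 12.8% with a library left out. These shares are of each setting's own members. They were below that of all regions except with 50% cover, where the share was above the 19.6% of all regions. The share overlapping a gene was 69.6% and 67.8% with 50% cover and the widest 17035 peaks, and 59.1 to 65.6% with a library left out. The median log2 width ratio stayed negative in every alternative, from -0.50 to -0.03, with -0.48 to -0.03 when a library was left out. Members at list genes were 9.09% of the 143 with the widest 17035 peaks, where 17 of the 736 remained, and 3.08 to 4.88% with a library left out. No share of all regions at list genes is given for these settings, so the 9.09% is not read as a higher share than that of all regions. Genes with at least 2 members numbered 46, against 103 with 50% cover, 15 and 3 with the shorter lists, and 55 to 177 with a library left out: 72 without pc-BMACs 1, 177 without pc-BMACs 2, 85 without immature B cells 2, 118 without plasma cells 1 and 114 without plasma cells 2. Of 240 member counts of single named genes under these alternatives, 167 were within 1.5 times the reported count. Most of the 167 came from leaving out a library, merging across gaps or taking genes within 10 kb. Leaving out a library relaxes the rule, so members are seldom lost there. With the widest 17035 peaks no gene kept its count within that range, and Lpp went from 4 to 0. With peaks of at least 250 bp Prkce alone kept it. No paired analysis was made, as these results come from no test. The R labels would not give a full pairing, since none is shared by all populations and their meaning is not stated. Where a value moved, the cause was not tested beyond the fewer peaks or libraries that an alternative uses.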

Other observations

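Some further members lay in or near immune genes that no list held. They were picked after their values were seen, carry no test and are given as examples. Pml, the scaffold of nuclear bodies and an interferon-inducible gene, held a pair of members 341 bp apart, at chr9:58231759-58232117 with 254 and 150 bp in pc-BMACs, against 284 and 286 bp in immature B cells, and at chr9:58232459-58232764 with 294 and 150 bp in pc-BMACs and 231 and 150 bp in immature B cells. Ifnar2, a subunit of the type I interferon receptor, held a member at chr16:91398009-91399673 with 1203 and 150 bp in pc-BMACs and 1624 and 642 bp in immature B cells. Near Irf1, an interferon regulatory factor, a member at chr11:53803031-53803464 had 291 and 187 bp in pc-BMACs, against 427 and 307 bp in immature B cells. Widths overlapped between the populations at Ifnar2 and at one of the Pml members.

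Receptor genes also appeared among them. The chemokine receptor gene Ccr1 had members 400 bp apart that lay outside the gene. The first, at chr9:123956635-123957303, covered 669 and 537 bp in pc-BMACs, against 449 and 240 bp in immature B cells. The second, at chr9:123957704-123958159, covered 456 and 351 bp in pc-BMACs and 376 and 234 bp in immature B cells. Il10ra, the IL-10 receptor chain, also had members outside the gene. The first, at chr9:45271787-45272705, covered 880 and 782 bp in pc-BMACs and 887 and 444 bp in immature B cells. The second, at chr9:45280400-45281572, covered 188 and 150 bp in pc-BMACs, against 1173 and 394 bp in immature B cells. Of the 5 regions of Il10ra, 3 and 3 were called in pc-BMACs, 5 and 5 in immature B cells, against 2 and 2 in plasma cells. Mrc1, the mannose receptor, held a member at chr2:14279886-14280467 with 493 and 469 bp in pc-BMACs, against 336 and 192 bp in immature B cells. The hairpin of Mir138-2 lay inside a member at chr8:94324193-94324461 with 189 and 230 bp in pc-BMACs and 269 and 150 bp in immature B cells.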
